A study of Mus musculus with 37 samples.

Results

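Lymph node T cell receptor beta (TRB) repertoires of mice labelled PLX+PTX+aPD-1_R (R mice) were compared between d105 and d95. The members were chosen by their treatment and time labels, which gave 11 of the 37 libraries of the series, 6 at d105 and 5 at d95, with 1 library per mouse. All 11 mice carried MMTV-PyMT, a transgene that drives mammary tumors from the promoter of mouse mammary tumor virus, and all received 3 agents. PLX3397 (pexidartinib), an inhibitor of the macrophage receptor CSF1R, was mixed into chow for a daily dose of 40 mg/kg and started when mice were 80 days old. PTX injections of 10 mg/kg, repeated at 5-day intervals, started at 85 days of age. Injections of aPD-1, an antibody (RMP1-14) against the inhibitory receptor PD-1, started at 87 days with 1.0 mg, and doses of 0.5 mg followed at 5-day intervals. The labels do not say what the suffix R or NR means. For comparison on the same 2 days, 7 libraries came from mice labelled PLX+PTX+aPD-1_NR (NR mice, 4 at d105 and 3 at d95), with the same agents, and 9 from PLX+PTX mice (6 and 3), which received PLX3397 and PTX without aPD-1. These 16 mice carried the same transgene. The mice of d95 and d105 were different animals, so a difference between days is one between groups of mice and not a course within a mouse.

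A TRB gene is made in the thymus by joining 1 variable (V), 1 diversity (D) and 1 joining (J) segment, with bases trimmed and added at the joints. The joint encodes the CDR3 loop, which contacts the peptide, and its sequence marks a T cell and all its descendants. TRBD1 can join J segments of either the TRBJ1 or the TRBJ2 cluster, while TRBD2 joins those of the TRBJ2 cluster. A clonotype here is a CDR3 nucleotide sequence with its V and J segment. Reads of genomic DNA count rearranged genes, through a PCR with many V and J primers and no molecular identifiers. A share of reads is therefore set by cell number and by how well a V-J pair amplifies, and a share with each clonotype counted once by how many distinct receptors were seen. Both are given side by side.

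The d105 libraries held 1503902 to 2449606 reads and 45911 to 87090 clonotypes, and the d95 libraries 432954 to 917752 reads and 20177 to 32057 clonotypes. Every library was thinned to 432954 reads, the total of the shallowest. Sequencing yield moved with day: before thinning, 19.9 to 25.9% of clonotypes at d105 and 15.7 to 19.8% at d95 rested on a single read. No block of label numbers held R mice of both days. Day, block of numbers and sequencing yield cannot be told apart, and this holds for every difference given here. Without the 2 d105 mice of the lower label numbers, 126 regroupings remain with a smallest exact p of 0.0159, and the smallest adjusted p of any measure per library was 0.0536.

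At equal reads, d105 libraries held more distinct clonotypes. Their number in the thinned libraries had a lowest value of 34191, a median of 48336 and a highest value of 67330 at d105. The 5 d95 libraries had 28731, 26741, 23829, 19857 and 22884. The groups did not overlap, with means of 49247 ± 12011 (SD, n = 6) and 24408 ± 3446 (SD, n = 5), a ratio of 2.02 (exact permutation p 0.00433, adjusted 0.0146). That p is the smallest that regrouping the mice allows, and all exact tests here were 2-sided. Fewer T cells in the sampled DNA and fewer distinct receptors per T cell cannot be told apart in such libraries. Other groups differed in the same direction, with a mean of 50242 at d105 and 11746 at d95 in NR mice and of 51753 and 16781 in PLX+PTX mice, where 4 of the 6 d95 libraries were below the thinning depth and were kept whole.

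Clonality, which is 0 when all clonotypes have equal reads and 1 when 1 clonotype holds them all, was low on both days. It was 0.0324 ± 0.0025 (SD, n = 6) at d105 and 0.0440 ± 0.0052 (SD, n = 5) at d95, and the ranges of 0.0300 to 0.0373 and 0.0378 to 0.0490 did not overlap (exact permutation p 0.00433, adjusted 0.0146). The call did not hold without thinning, where the difference of d105 minus d95 was 0.000861, with the authors' normalized clone count, where it was 0.000482, or without single-read clonotypes, where it was -0.00344. The 10 largest clonotypes held 0.622% ± 0.227 of reads at d105 and 0.590% ± 0.128 at d95 (exact permutation p 0.861). Clonotypes above 0.1% of reads together held 0.224% ± 0.207 and 0.0948% ± 0.160 (exact permutation p 0.294). The largest clonotypes held small shares on both days.

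**Figure D1:**
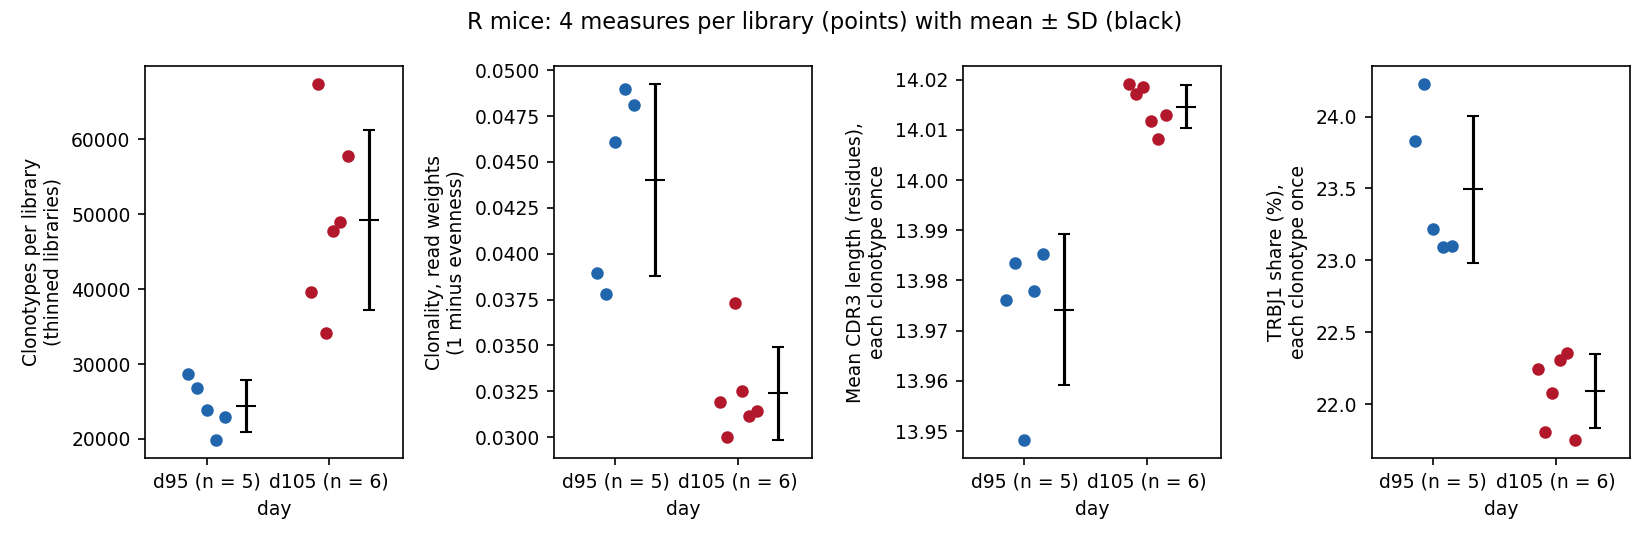
Number of clonotypes in thinned libraries, clonality by reads, mean CDR3 length in residues and percent of clonotypes with a TRBJ1 segment, 1 point per R library, with mean ± SD beside the points. On each axis the 6 d105 libraries and the 5 d95 libraries occupy separate ranges, with 34191 clonotypes as the lowest d105 value and 28731 as the highest d95 value.

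Segment use differed in both weightings, and 5 of the 10 segments called in each were the same. By read weights limma called 10 of 24 tested segments (41.7% of those tested), 8 with a higher share at d105 and 2 with a lower one. With each clonotype counted once it also called 10 of 24 (41.7%), 6 higher and 4 lower. TRBV26, TRBV4, TRBJ2-5 and TRBJ2-3 were called higher and TRBJ1-6 lower in both. The read-weighted calls of TRBV4 and TRBJ2-3 were each lost in 4 of the 11 fits that left out a mouse (highest limma adjusted p 0.0800 and 0.0661). For TRBV4 these were the fits without d105 R replicate 1 or 4 or d95 R replicate 3 or 5, and for TRBJ2-3 those without d105 R replicate 2 or 3 or d95 R replicate 2 or 4.

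TRBJ1-6, a segment of the TRBJ1 cluster, had the most negative log2 difference of the called segments by read weights. It held 4.76 to 5.29% of reads at d105, with a median of 5.04%, and 7.38, 7.32, 7.09, 6.74 and 7.12% in the d95 libraries. No d105 value reached a d95 value (log2 -0.50 ± 0.03 SE, limma adjusted p 6.2e-07). Counted once, it held 3.97% ± 0.13 of clonotypes at d105 and 4.35% ± 0.18 at d95, with overlapping groups and a difference of -0.13 ± 0.03 on the log2 scale (limma adjusted p 0.00688). TRBJ2-5 rose in both weightings without overlap. Its share of reads was 13.4 to 14.7% at d105, with a median of 13.6%, against 9.58, 10.4, 10.7, 10.7 and 10.9% at d95 (log2 0.40 ± 0.04 SE, limma adjusted p 1.06e-05), and of clonotypes 14.1% ± 0.13 against 12.9% ± 0.39 (log2 0.13 ± 0.02). TRBJ2-4 rose by reads without overlap, from 6.61% ± 0.15 to 7.69% ± 0.28 (log2 0.22 ± 0.03, limma adjusted p 1.39e-04), and differed by 0.04 ± 0.02 counted once (limma adjusted p 0.114). TRBJ2-7, the most used J segment, fell by read weights from 28.6% ± 0.66 to 25.0% ± 0.65, and differed by -0.05 ± 0.02 on the log2 scale counted once (limma adjusted p 0.0561).

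Of the V segments, TRBV23, TRBV30 and TRBV29 had higher read shares at d105 and near equal clonotype shares. TRBV29, a segment with which mammary tumor virus superantigens react and one used by NKT cells, held 10.1% ± 0.50 of reads at d105 and 7.00% ± 0.66 at d95 (log2 0.52 ± 0.07 SE, limma adjusted p 4.78e-05), with no overlap between groups. It held 6.52% ± 0.20 and 6.63% ± 0.28 of clonotypes (log2 -0.03 ± 0.03, limma adjusted p 0.529). TRBV23 held 1.27% ± 0.09 and 0.689% ± 0.10 of reads (log2 0.88 ± 0.10) and 0.862% ± 0.05 and 0.797% ± 0.04 of clonotypes (log2 0.11 ± 0.05, limma adjusted p 0.0561). TRBV30 differed by 0.68 ± 0.12 in reads and by -0.03 ± 0.05 counted once. These segments were called by reads and not with each clonotype once.

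TRBV24, TRBV3, TRBV5, TRBV1 and TRBV2 were called with each clonotype once and not by reads. TRBV24, the most abundant V segment by both weights at d95, held 15.2 to 16.6% of clonotypes at d105, with a median of 15.8%, and 17.4, 17.04, 18.8, 18.2 and 19.2% at d95 (log2 -0.19 ± 0.04 SE, limma adjusted p 0.00172). Its read shares differed by a like amount, -0.18 ± 0.07, with overlapping groups (limma adjusted p 0.0605). TRBV26, another superantigen segment, rose in clonotypes from 4.32% ± 0.21 to 5.16% ± 0.14 (log2 0.26 ± 0.03, limma adjusted p 1.91e-04), without overlap, and in reads from 5.79% ± 0.53 to 6.66% ± 0.14 (log2 0.20 ± 0.05), with overlap. TRBV4 rose by 0.23 ± 0.08 in reads and 0.19 ± 0.04 counted once. TRBV5 and TRBV3 rose by 0.13 ± 0.03 and 0.15 ± 0.05 counted once, and TRBV1 and TRBV2 fell by 0.08 ± 0.02 and 0.09 ± 0.03. By reads TRBV1 differed by -0.16 ± 0.06 (limma adjusted p 0.0605), and TRBV2, TRBV3 and TRBV5 by -0.01 ± 0.06, -0.04 ± 0.12 and 0.03 ± 0.04. The calls of TRBV2 and TRBV3 were each lost in 2 of the 11 fits that left out a mouse (highest limma adjusted p 0.0507 and 0.0599).

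**Figure D2:**
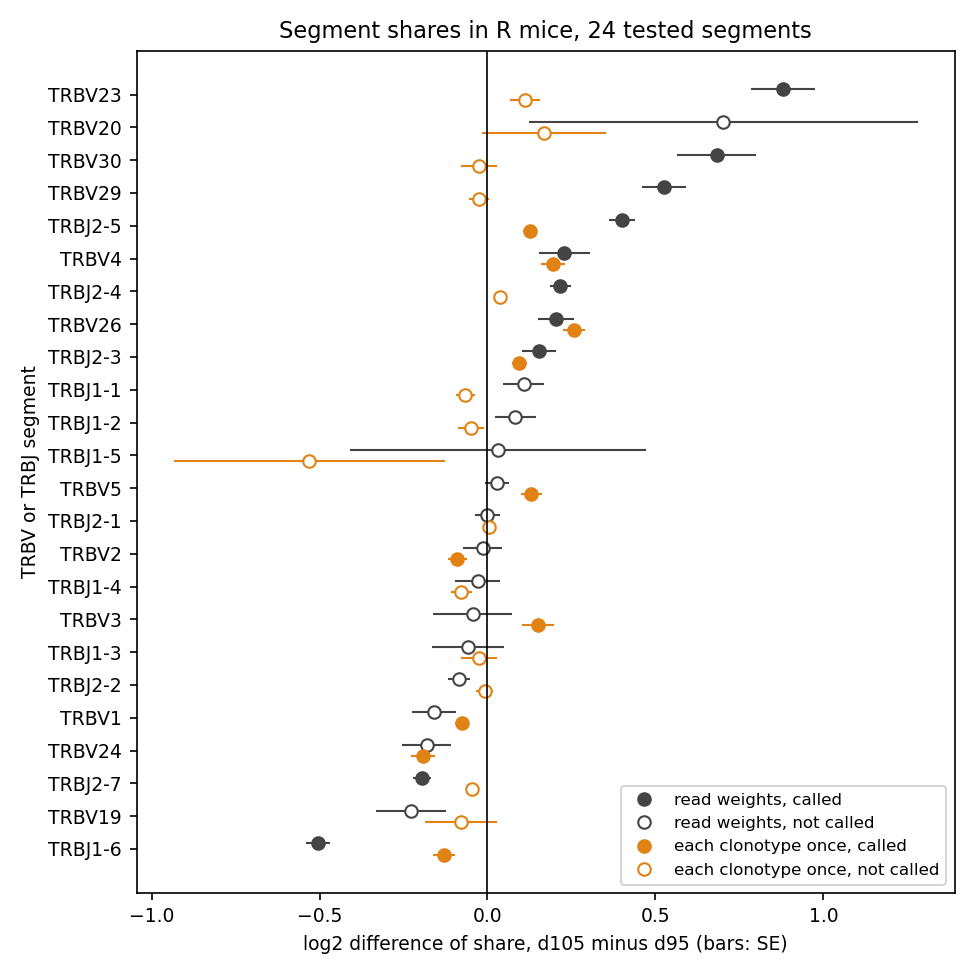
Difference of the share of 24 TRBV and TRBJ segments between d105 and d95 in R mice, on the log2 scale with its SE, by read weights (grey) and with each clonotype once (orange); filled points passed the limma threshold. TRBV23, TRBV30 and TRBV29 lie far from 0 only by read weights, TRBJ1-6 lies at -0.50 by reads and -0.13 counted once, and TRBV26 lies near 0.2 in both.

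The segment lists gave these counts, to be read against the 41.7% called over all tested segments in either weighting. Of 5 superantigen segments (TRBV19, TRBV24, TRBV26, TRBV29 and TRBV31), 4 were found and tested. By reads 2 were called, both higher, and counted once 2 were called, TRBV26 higher and TRBV24 lower, so the list had no common direction (median log2 0.01 and -0.05, against 0.03 and -0.03 over all tested). TRBV19 differed by -0.23 ± 0.10 by reads and -0.08 ± 0.11 counted once (limma adjusted p 0.0913 and 0.572). Of 6 segments used by invariant T cells, 3 were tested, with TRBV29 called higher by reads and TRBV1 lower counted once. Of 7 TRBJ1 segments, 6 were tested and only TRBJ1-6 was called in either weighting, and of 6 TRBJ2 segments, 4 were called by reads (3 higher) and 2 counted once (both higher). The TRBJ1 cluster as a whole held 22.1% ± 0.26 of clonotypes at d105 and 23.5% ± 0.51 at d95, without overlap (exact permutation p 0.00433, adjusted 0.0146), and 23.99% ± 0.52 and 25.2% ± 1.07 of reads (exact permutation p 0.0346, adjusted 0.0850). The read-weighted difference of -1.22 percentage points passed the threshold without d105 R replicate 5, with an adjusted p of 0.0238. By the authors' normalized clone count 8 segments were called higher and 11 lower, and by the nb clone count 9 and 7. All 10 segments called by reads kept their direction under both, of which 7 and 9 were called. On the same reads edgeR called 12 segments (7 higher) and DESeq2 13 (7 higher).

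The most extreme differences were larger for V-J pairs than for segments in both weightings. By read weights limma called 56 of 98 tested pairs (57.1%), 38 higher and 18 lower at d105, and with each clonotype once 26 of 116 (22.4%), 17 higher and 9 lower. A block, chosen here after the values were seen, was formed by TRBV3, TRBV4, TRBV5 and TRBV26 with TRBJ2-1, TRBJ2-3, TRBJ2-4 and TRBJ2-5. It held 14 of the 38 pairs called higher by reads and 14 of the 17 counted once. Outside it, 8 of 10 tested TRBV29 pairs and 3 of 4 TRBV23 pairs were also called higher by reads. All 14 of these pairs tested by reads were called higher, by 1.23 to 2.58 on the log2 scale (median 1.78, against 0.13 over all 98), and 14 of 16 counted once, with a median of 0.56 (against -0.04 over all 116). TRBV5 TRBJ2-5 was the extreme by reads. It held 0.157 to 0.279% of reads at d105, with a median of 0.217%, and 0.0316, 0.0319, 0.0263, 0.0321 and 0.0219% in the d95 libraries (log2 2.58 ± 0.14 SE, limma adjusted p 5.25e-09). Its share of clonotypes was 1.16% ± 0.20 and 0.383% ± 0.07 (log2 1.57 ± 0.14, limma adjusted p 4.8e-06). TRBV26 TRBJ2-3 was the extreme counted once, with 0.147 to 0.304% of clonotypes at d105, a median of 0.285%, and 0.0209, 0.0374, 0.0336, 0.0353 and 0.0350% at d95 (log2 2.65 ± 0.18, limma adjusted p 6.93e-07). The groups lay apart for both pairs. TRBV26 TRBJ2-3 was not among the pairs tested by reads, and its d95 shares rested on few clonotypes per library.

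TRBV26 TRBJ2-4 (2.12 ± 0.15), TRBV26 TRBJ2-5 (2.04 ± 0.10), TRBV4 TRBJ2-5 (1.96 ± 0.09) and TRBV3 TRBJ2-5 (1.92 ± 0.16) followed by reads, and TRBV5 TRBJ2-4 (1.38 ± 0.20), TRBV26 TRBJ2-4 (1.12 ± 0.11) and TRBV26 TRBJ2-5 (0.92 ± 0.07) counted once. The pairs that fell most by reads held TRBJ1-6, with TRBV3 (-0.72 ± 0.14), TRBV19 (-0.68 ± 0.13), TRBV24 (-0.67 ± 0.10) and TRBV1 (-0.64 ± 0.10), followed by TRBV19 TRBJ2-7 (-0.59 ± 0.12). Of 9 tested TRBJ1-6 pairs, 6 were called lower by reads and 2 counted once. Counted once, the largest falls among called pairs were those of TRBV3 TRBJ1-6 (-0.27 ± 0.06) and TRBV24 with TRBJ2-4 (-0.27 ± 0.06), TRBJ1-2 (-0.25 ± 0.07), TRBJ1-4 (-0.24 ± 0.07) and TRBJ2-5 (-0.22 ± 0.06). TRBV24 had 6 pairs called, all lower, out of 12, while TRBV26 and TRBV4 had 4 each, all higher. The count of 26 pairs fell to 17 without d105 R replicate 1, to 15 without d105 R replicate 3 and to 17 without d95 R replicate 3.

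**Figure D3:**
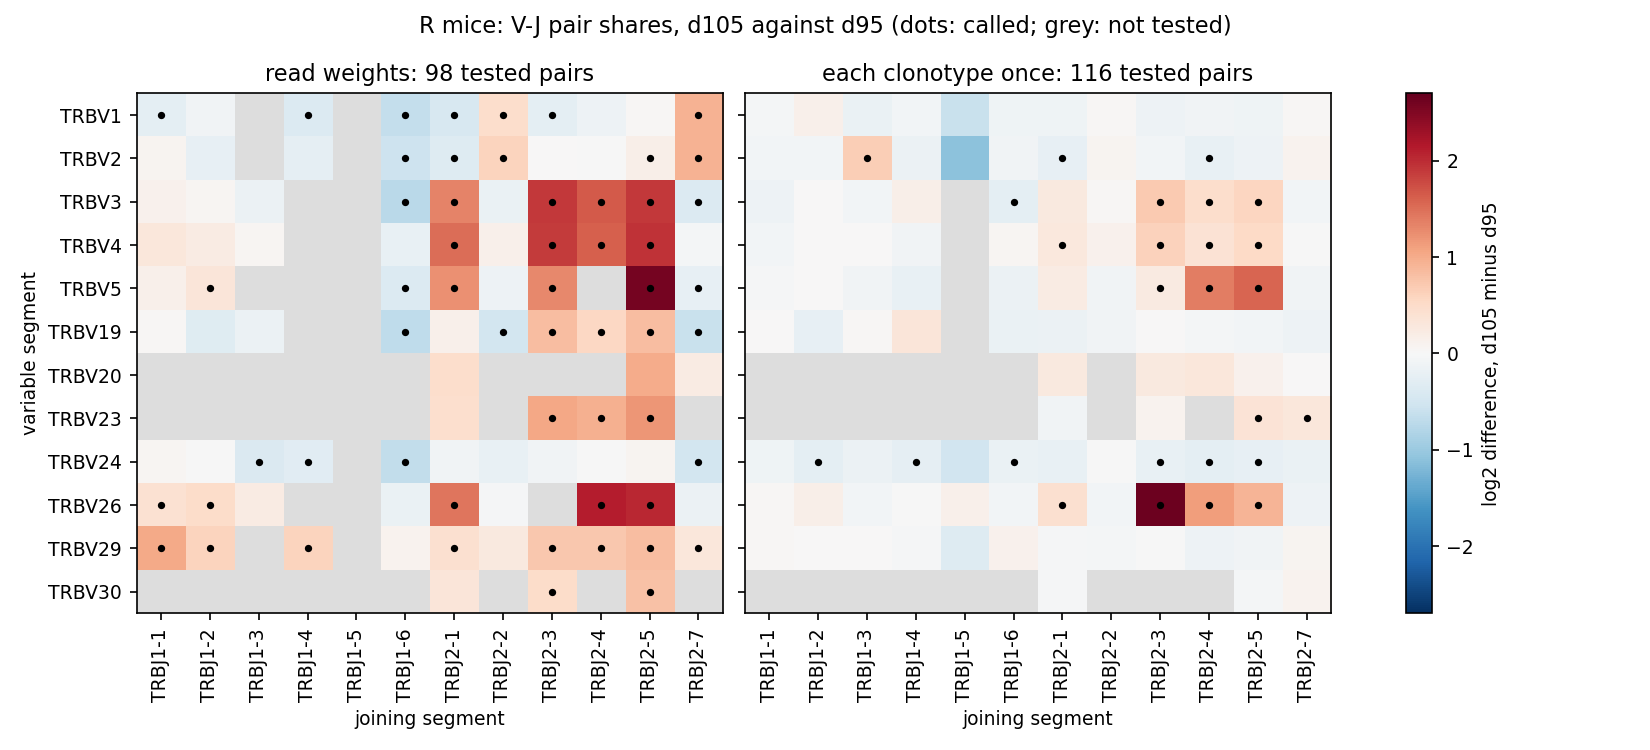
Log2 difference of the share of each V-J pair between d105 and d95 in R mice, with V segments in rows and J segments in columns, by read weights (98 pairs) and with each clonotype once (116 pairs); dots mark called pairs and grey cells were not tested. The highest values fill the rows TRBV3, TRBV4, TRBV5 and TRBV26 under TRBJ2-1, TRBJ2-3, TRBJ2-4 and TRBJ2-5, and the column of TRBJ1-6 is mostly below 0 by reads.

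The pairs of this block had few reads per clonotype in the thinned libraries. TRBV5 TRBJ2-5 had 1.74 ± 0.20 reads per clonotype at d105 and 1.35 ± 0.08 at d95, and TRBV4 TRBJ2-5 had 3.34 ± 0.73 and 2.28 ± 0.25. Over 110 pairs with at least 20 clonotypes in every library, the ratio of reads per clonotype at d105 to that at d95 had a median of 0.627 and ran from 0.358, for TRBV1 TRBJ1-6 (10.6 ± 3.4 and 29.7 ± 6.5), to 1.46, for TRBV4 TRBJ2-5. It was above 1 in 18 pairs. The authors' normalized clone count raised the pairs of the block. The factor of a pair, its normalized clone count over its clone count, was 6.68 to 93.0 in the 16 pairs tested with each clonotype once (median 15.1), and 0.206 to 19.3 in the other 100 (median 1.24). The part of pair-specific amplification in these differences was not tested. The normalized clone count rescales pairs by the same factor on both days, and it moved the median over tested pairs from 0.13 to -0.24 on the log2 scale. The calls then ran to 29 higher and 50 lower, and with the nb clone count to 36 and 37. Of the 56 pairs called by reads, 51 were tested with the normalized clone count, 46 kept their direction and 41 of these were called.

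The same pairs were then read in mice outside the R group, an analysis added after the values were seen. These comparisons share no library with the R comparison, but day, label numbers and sequencing yield moved together in these groups too. Of the 56 pairs called by reads in R mice, 56 had the same sign between d105 and d95 in NR mice and 54 in PLX+PTX mice, and of the 26 called counted once, 24 and 25. The likeness was not limited to called pairs. Over all 98 pairs tested by reads, the log2 differences had a Pearson r of 0.947 with NR and 0.857 with PLX+PTX mice. Over all 116 counted once it was 0.830 and 0.793. TRBV5 TRBJ2-5 differed by 2.69 in NR mice and 2.91 in PLX+PTX mice by reads, against 2.58 in R mice. TRBV1 TRBJ1-6 differed by -0.89 and -1.10, against -0.64. The limma test of the day difference in R mice minus that in NR mice called 0 of 98 pairs by reads (0%; 3 at an unadjusted p under 0.05) and 0 of 116 counted once (0%; 10 at an unadjusted p under 0.05). The test of R minus PLX+PTX called 0 of 98 (0%; 34 at an unadjusted p under 0.05) and 0 of 116 (0%; 13). For segments by reads, limma called 0 of 24 against NR (0%; 1 at an unadjusted p under 0.05) and 0 of 24 against PLX+PTX (0%; 11). A p above the threshold does not show that the day differences were equal. Without d95 R replicate 5 the comparison with PLX+PTX called 10 segments and 26 pairs by reads, so that result rests on this library.

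**Figure D4:**
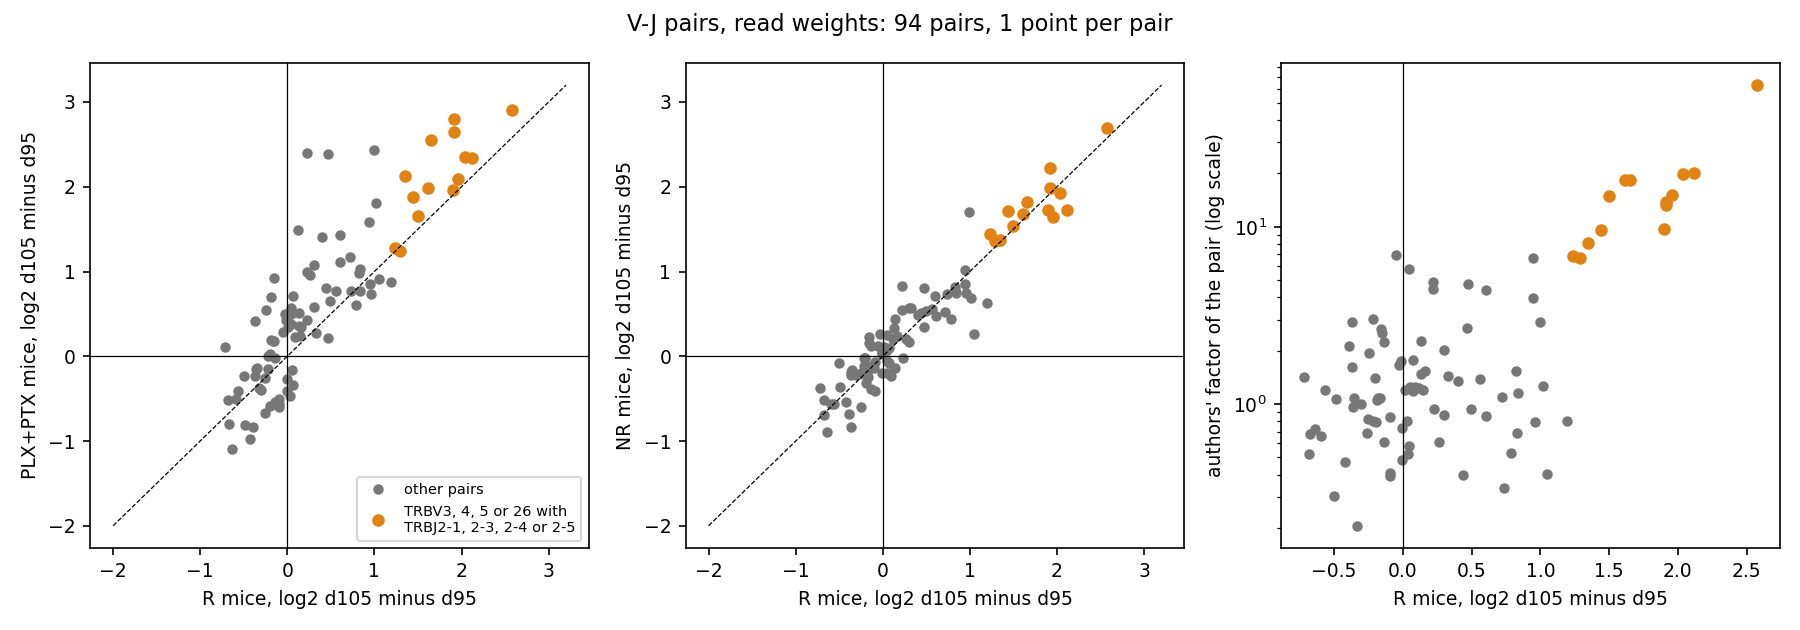
Log2 difference between d105 and d95 in R mice (horizontal axes) for 94 V-J pairs by read weights, against the same difference in PLX+PTX mice and in NR mice, with a dashed line of equality, and against the authors' factor of the pair on a log scale. The 14 orange pairs, with TRBV3, TRBV4, TRBV5 or TRBV26, lie at the upper right of each panel. TRBV5 TRBJ2-5 lies at 2.58 in R mice, 2.91 in PLX+PTX mice and 2.69 in NR mice.

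CDR3 loops were slightly longer at d105 when each clonotype counted once. The mean length was 14.01 to 14.02 residues at d105, with a median of 14.02, and 13.98, 13.98, 13.95, 13.98 and 13.99 residues in the d95 libraries. The groups did not overlap, and the difference was 0.0404 residues (exact permutation p 0.00433, adjusted 0.0146). Limma called 5 of 9 length classes counted once (55.6%). Classes of 15 and 16 residues rose and those of 11, 12 and 13 fell. The call of 15 residues (log2 0.03 ± 0.01) was lost in 7 of the 11 fits that left out a mouse (highest limma adjusted p 0.0962), those without d105 R replicate 2, 3, 4, 5 or 6 or d95 R replicate 3 or 4. CDR3s of 12 residues made up 8.84% ± 0.12 of clonotypes at d105 and 9.25% ± 0.28 at d95 (log2 -0.07 ± 0.02 SE, limma adjusted p 0.0124), and those of 16 residues 9.17% ± 0.16 and 8.70% ± 0.27 (log2 0.08 ± 0.02, limma adjusted p 0.0124). By read weights limma called 0 of 9 length classes (0%; 0 at an unadjusted p under 0.05), and the mean was 13.80 ± 0.0065 residues at d105 and 13.83 ± 0.024 at d95 (exact permutation p 0.0303, adjusted 0.0818). The sign of the difference was opposite in the 2 weightings. Without d95 R replicate 3 the read-weighted difference was -0.0399 residues and passed the threshold, and with the normalized clone count it was 0.0588.

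Since V-J pairs differ in CDR3 length, all libraries were also given the same pair shares, over the 110 pairs above, a step added after the values were seen. The length difference counted once was then 0.0394 residues (exact permutation, adjusted p 0.0332), and 4 length classes were called, among them 16 residues (higher) and 11 and 13 residues (lower). Of 20 amino acids at the central positions, those from residue 5 to the fifth from the end, limma called 7 by reads (35%), with glutamine, glutamate and aspartate higher and tyrosine, serine, isoleucine and asparagine lower. It called 4 counted once (20%), with glutamate higher and asparagine, cysteine and tyrosine lower. Leaving out a mouse ended the tyrosine call counted once in 6 of 11 fits, and the read-weighted calls of isoleucine in 5 and asparagine in 4. Without thinning the cysteine share counted once differed by 0.28 on the log2 scale (limma adjusted p 0.0311), opposite in sign to the -0.45 of the thinned libraries. Tyrosine made up 5.50% ± 0.09 of central residues by reads at d105 and 6.15% ± 0.10 at d95 (log2 -0.16 ± 0.01 SE, limma adjusted p 6.47e-06), and the log2 difference was -0.02 with equal pair shares. With equal pair shares limma called 0 of 20 in both weightings, with 5 by reads and 2 counted once at an unadjusted p under 0.05.

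An inner cysteine was present in 0.114 to 0.230% of clonotypes at d105, with a median of 0.181%, and in 0.254, 0.266, 0.243, 0.272 and 0.262% at d95 (exact permutation p 0.00433, adjusted 0.0146). With equal pair shares the difference remained (exact permutation, adjusted p 0.0498), but without thinning it had the opposite sign, 0.0787. By reads the shares were 0.0938% ± 0.016 and 0.102% ± 0.022 (exact permutation p 0.528). Of 5 motifs of D reading frames, GLG was present in 3.68% ± 0.05 of clonotypes at d105 and 3.53% ± 0.07 at d95 (exact permutation p 0.00433, adjusted 0.0146). By reads GLG had the opposite sign, with 3.04% ± 0.07 and 3.10% ± 0.14 (exact permutation p 0.385). GTG, GQG, DWG and DRG differed with adjusted p values of at least 0.117 in either weighting, and hydrophobic residues at positions 6 and 7 likewise (0.442 or more). Of 27 such measures per library, 9 were called.

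The deposited segment boundaries gave 12 junction measures, added after the files were seen and adjusted among themselves, and 4 were called. A D segment was assigned in 76.7% ± 0.07 of clonotypes at d105 and 76.0% ± 0.36 at d95, and TRBD1 in 55.0% ± 0.25 and 55.8% ± 0.28 of those assigned (exact permutation p 0.00433, adjusted 0.0173, for both). By reads a D segment was assigned in 73.3% ± 0.30 and 72.9% ± 0.43 (exact permutation p 0.221). TRBD1 by reads had the opposite sign, with 60.3% ± 0.35 and 59.9% ± 0.50 (exact permutation p 0.177). J segments had lost 3.11 ± 0.03 and 3.19 ± 0.04 bases counted once (exact permutation p 0.0130, adjusted 0.0390), a call that leaving out a mouse ended in 9 of 11 cases. By reads the loss was 3.03 ± 0.02 and 3.03 ± 0.03 bases (exact permutation p 0.636). V segments had lost 2.91 ± 0.01 and 2.85 ± 0.01 bases by reads (exact permutation p 0.00433, adjusted 0.0173), and 2.850 ± 0.003 and 2.848 ± 0.006 counted once (exact permutation p 0.333). Of the 4 called measures, the share of clonotypes with a D segment was called with equal pair shares (0.662 percentage points, exact permutation, adjusted p 0.0260).

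Most receptors were private. The 11 thinned libraries held 302233 clonotypes with distinct V, J and amino acid CDR3, of which 84.7% were found in 1 library and 98 in all 11. The largest clonotype of each library was named first, and its share of reads is given with a 95% Wilson interval for counting error only. The leaders of 7 libraries are shown with their CDR3 in lower case from 5′ to 3′, with capitals for bases that the deposited boundaries place in no segment, as examples of the most abundant rearrangement of a library.
d105 R replicates 3 and 6, TRBV13-2 TRBJ2-5: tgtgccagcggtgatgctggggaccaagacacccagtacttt
d105 R replicate 5, TRBV30 TRBJ1-2: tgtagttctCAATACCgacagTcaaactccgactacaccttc
d105 R replicate 4, TRBV24 TRBJ2-3: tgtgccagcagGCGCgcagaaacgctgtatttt
d105 R replicate 2, TRBV24 TRBJ2-7: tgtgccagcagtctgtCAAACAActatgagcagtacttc
d95 R replicate 5, TRBV1 TRBJ1-1: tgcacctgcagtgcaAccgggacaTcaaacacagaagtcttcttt
d95 R replicate 3, TRBV19 TRBJ2-7: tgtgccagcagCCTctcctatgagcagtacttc

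The highest share was 0.496% (0.476 to 0.518) of the reads of d105 R replicate 3, and 0.141% (0.130 to 0.152) in d105 R replicate 6, both for TRBV13-2 TRBJ2-5 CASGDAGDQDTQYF. At d95 the highest was 0.269% (0.254 to 0.284), for the TRBV1 TRBJ1-1 clonotype of d95 R replicate 5. The leaders of d105 R replicates 2, 4 and 5 held 0.126, 0.168 and 0.177% and were found in no other R library, and those of d95 R replicates 1, 2 and 3, with 0.0737, 0.0642 and 0.0841%, likewise. The leader of d95 R replicate 4, TRBV26 TRBJ1-1 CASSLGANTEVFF with 0.104%, was found, by its amino acid sequence, in all 11 libraries. The leader of d105 R replicate 1, TRBV4 TRBJ2-7 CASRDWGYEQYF with 0.0815%, was found, by its amino acid sequence, in 3 d105 and 3 d95 libraries. Its nucleotide sequence was found in 2 d105 and 0 d95 libraries. The leader of d95 R replicate 5 was also found in 1 d105 library. The leaders of 3 of 6 d105 and 3 of 5 d95 libraries were thus found in no other R library.

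TRBV13-2 is 1 of 9 listed segments that FVB/N mice are known to lack, and no segment of that list passed the filter on share. The sequence shown for TRBV13-2 TRBJ2-5 was nevertheless present in all 6 d105 libraries and 2 of 5 at d95. The clonotype had 39, 82, 2149, 128, 53 and 640 thinned reads at d105 and 0, 0, 0, 2 and 14 at d95. The same nucleotide sequence was found in 4 of 4 d105 NR libraries (up to 0.222% of reads), 5 of 6 d105 PLX+PTX libraries (up to 0.0632%), 2 of 2 d105 PTX libraries (up to 0.549%) and 5 of 5 d105 WTNT libraries (FVBN mice without the transgene, up to 0.649%). At d95 it was found in 2 of 3 NR, 1 of 3 PTX and 0 of 3 PLX+PTX libraries, up to 0.0574%. Reads of the deletion list made up 0.0303 to 0.651% at d105, with a median of 0.0366%, and 0.00993, 0.00277, 0.00346, 0.00739 and 0.0217% at d95 (exact permutation p 0.00433, adjusted 0.0146). In the full libraries the list without that sequence held 0.00952 to 0.148% of reads at d105 and 0.00240 to 0.0178% at d95, with overlap. Without d105 R replicate 3 the difference of means in the thinned libraries was 0.0533 percentage points, against 0.151 with it. Counted once, the list held 0.0431% ± 0.025 and 0.0537% ± 0.030 of clonotypes (exact permutation p 0.545). Whether carry-over between libraries plays a part was not tested.

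Sharing was highest among the d105 libraries, and that among the d95 libraries was below that across days. Here, and for the public and shared clonotypes below, clonotypes were matched between libraries by V, J and amino acid CDR3. The Morisita-Horn index, which compares read shares and is 1 for identical libraries, averaged 0.179 over the 15 pairs of d105 libraries, 0.123 over the 10 pairs of d95 libraries and 0.131 over the 30 pairs across days. The mean within days minus that across was 0.0258 (exact permutation p 0.00433). The Jaccard index, the share of clonotypes found in both libraries, averaged 0.0564, 0.0379 and 0.0423 (within minus across 0.00672, exact permutation p 0.00433). The higher value at d105 moved with the number of clonotypes. With all libraries cut to equal numbers of clonotypes the Jaccard index was 0.0313, 0.0331 and 0.0312 (exact permutation p 0.0173) and the Morisita-Horn index 0.0907, 0.104 and 0.0819 (exact permutation p 0.0346). The latter then ran from 0.0534 to 0.309 among d105 libraries, 0.0990 to 0.115 among d95 libraries and 0.0638 to 0.0991 across days. Without the 2 d105 mice of the lower label numbers neither difference passed (0.0169, exact permutation p 0.0635, and 0.00228, p 0.143).

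Public clonotypes took a smaller share at d105. Here these are the 2916 clonotypes that occurred in 50% or more of the 26 libraries outside the R groups, most of which are from d105. They made up 6.84 to 7.33% of clonotypes at d105, with a median of 7.17%, and 7.63, 7.55, 7.52, 7.58 and 7.35% at d95 (exact permutation p 0.00433, adjusted 0.0146). By reads they held 9.18% ± 0.15 and 9.84% ± 0.33 (exact permutation p 0.00866, adjusted 0.0260), a call that ended without d95 R replicate 1, 4 or 5 (highest adjusted p 0.0571). The difference was not called with equal pair shares, at -0.272 percentage points counted once and -0.145 by reads (exact permutation, adjusted p 0.156 and 0.590). Convergent clonotypes, encoded by more than 1 nucleotide sequence in a library, made up 6.20% ± 0.98 and 5.05% ± 0.41 (exact permutation p 0.0390, adjusted 0.0877). With equal numbers of clonotypes the difference had the opposite sign, -1.12 percentage points, and passed the threshold (exact permutation, adjusted p 0.0225).

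Of the 98 clonotypes found in all 11 libraries, none of the 10 with the highest mean share was called. TRBV4 TRBJ2-7 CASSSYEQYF had 45 to 262 thinned reads at d105, with a median of 194.5, and 122, 251, 96, 116 and 207 at d95 (log2 0.11, limma adjusted p 0.967). TRBV4 TRBJ2-7 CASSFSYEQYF, TRBV19 TRBJ2-7 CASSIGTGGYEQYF and TRBV3 TRBJ2-7 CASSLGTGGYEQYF differed by -0.34, -1.09 and 0.46 (limma adjusted p at least 0.439), and the remaining 6 by -0.68 to 0.92 (at least 0.704). The clonotype with the most nucleotide forms, of TRBV1 and TRBJ2-7, had 31 forms over the 11 libraries and differed by 0.41 (limma adjusted p 0.864). TRBV3 TRBJ1-1 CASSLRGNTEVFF, with 26 forms, differed by 0.01 (limma adjusted p 0.994). Another TRBV1 TRBJ2-7 clonotype, with 23 forms, had 27 to 65 reads at d105 and 3, 3, 25, 13 and 8 at d95, without overlap, and was not called (log2 1.82, limma adjusted p 0.187). One form of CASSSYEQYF and the 2 commonest of the TRBV1 TRBJ2-7 clonotype are shown, which hold no base outside V, D and J segments.
TRBV4 TRBJ2-7 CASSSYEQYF: tgtgccagcagctcctatgagcagtacttc
TRBV1 TRBJ2-7, in 11 libraries: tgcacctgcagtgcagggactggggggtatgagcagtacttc
TRBV1 TRBJ2-7, in 9 libraries: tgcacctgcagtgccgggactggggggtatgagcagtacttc

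A set of 3130 clonotypes occurred in 6 or more of the 11 libraries. Of these, 12 passed in limma (0.383%), of which 9 were higher and 3 lower at d105, and 279 had an unadjusted p under 0.05. The filter and the larger number of clonotypes at d105 favour d105: a clonotype in all 6 d105 libraries and no d95 library passes (28 did), while 1 in all 5 d95 libraries and no d105 library cannot (12 such). All 9 called higher were found in all 6 d105 libraries and so passed the filter through d105 alone, and 6 of them had no d95 read. Nothing is read from the split of 9 and 3. By Fisher's exact test of detection 0 of 3130 passed (0%), and 114 had an unadjusted p under 0.05. Log2 differences of clonotypes are of reads per 1000000 thinned reads (CPM) plus 10, and a clonotype without reads was given a limit of 3 reads per library (6.93 CPM).

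The most even of those called was TRBV26 TRBJ1-1 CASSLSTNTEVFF, with 40, 24, 23, 20, 22 and 43 reads in the d105 libraries and none in any d95 library. It was at least 9.56-fold higher at d105 (log2 2.88, limma adjusted p 0.0126). It passed the filter on prevalence through d105 alone, so its p is not read as support for a difference. The same holds for all others called higher, including those with few d95 reads. TRBV24 TRBJ2-2 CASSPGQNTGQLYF had 96, 33, 65, 6, 66 and 37 reads at d105 and none at d95, at least 16.8-fold higher (limma adjusted p 0.0302). TRBV26 TRBJ1-6 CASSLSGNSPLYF was at least 10.8-fold, a TRBV1 TRBJ2-4 clonotype at least 7.72-fold and TRBV24 TRBJ2-7 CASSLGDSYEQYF at least 7.17-fold higher, all with no d95 read. A TRBV2 TRBJ2-3 clonotype, also with no d95 read, was at least 7.22-fold higher. TRBV24 TRBJ2-5 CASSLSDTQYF, TRBV29 TRBJ2-1 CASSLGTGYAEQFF and the TRBV13-2 clonotype above were also called, with few d95 reads. Those lower at d105 were TRBV3 TRBJ1-6 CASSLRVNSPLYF, with 13, 0, 0, 0, 0 and 0 reads at d105 and 111, 11, 43, 161 and 40 at d95 (log2 -3.39, limma adjusted p 0.0402), a TRBV1 TRBJ2-1 clonotype (log2 -3.28) and a TRBV24 TRBJ2-3 clonotype (log2 -2.50). Among these 12, chosen by their p, the d105 and d95 values overlapped only for TRBV3 TRBJ1-6 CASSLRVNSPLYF. That choice favours separate groups, and the share over all 3130 is not given here, so nothing is read from it.

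All 12 receptors were carried by several nucleotide forms, from 3 for the TRBV13-2 clonotype to 9 for the TRBV2 TRBJ2-3 clonotype. Of the TRBV13-2 clonotype, however, 1 form had 3060 thinned reads in 8 libraries. Its other forms had 31 and 16 reads, in 1 library each. The 2 forms in most libraries are shown for 3 clonotypes, with inserted bases in capitals.
TRBV26 TRBJ1-1, higher at d105, in 3 libraries: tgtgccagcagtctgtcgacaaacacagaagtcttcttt
TRBV26 TRBJ1-1, higher at d105, in 2 libraries: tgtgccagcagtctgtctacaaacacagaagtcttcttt
TRBV24 TRBJ2-2, higher at d105, in 4 libraries: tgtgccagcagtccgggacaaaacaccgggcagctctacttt
TRBV24 TRBJ2-2, higher at d105, in 4 libraries: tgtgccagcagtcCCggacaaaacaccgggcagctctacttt
TRBV3 TRBJ1-6, lower at d105, in 4 d95 libraries: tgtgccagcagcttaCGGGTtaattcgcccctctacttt
TRBV3 TRBJ1-6, lower at d105, in 4 d95 libraries: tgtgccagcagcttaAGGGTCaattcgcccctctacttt

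The 12 were looked up in the 16 thinned NR and PLX+PTX libraries. TRBV26 TRBJ1-1 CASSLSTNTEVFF was found in 7 of 10 libraries at d105 and 2 of 6 at d95, TRBV24 TRBJ2-2 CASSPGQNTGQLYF in 7 and 2, and the TRBV2 TRBJ2-3 clonotype in 10 and 1. Of the others called higher, that of TRBV13-2 was found in 9 and 2, TRBV24 TRBJ2-5 in 7 and 2 and TRBV24 TRBJ2-7 in 7 and 1. Those of TRBV26 TRBJ1-6, TRBV1 TRBJ2-4 and TRBV29 TRBJ2-1 were found in 6 and 2, 6 and 1, and 4 and 1. Of those lower at d105, TRBV3 TRBJ1-6 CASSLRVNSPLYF was found in 3 of 10 at d105 and 5 of 6 at d95. The other two went the other way, the TRBV1 TRBJ2-1 clonotype with 9 of 10 at d105 and 2 of 6 at d95 and the TRBV24 TRBJ2-3 clonotype with 6 of 10 and 0 of 6. The d95 libraries of these groups were the shallower ones. Within R mice the calls were not stable: 0 remained when clonotypes were taken by nucleotide sequence, when they had to be in 80% of libraries, with equal numbers of clonotypes or without the 2 d105 mice of the lower label numbers, and leaving out 1 mouse gave 0 to 17. Of the single mice, d105 R replicates 1, 4, 5 and 6 and d95 R replicates 3, 4 and 5 moved the count by over 1.5 times.

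**Figure D5:**
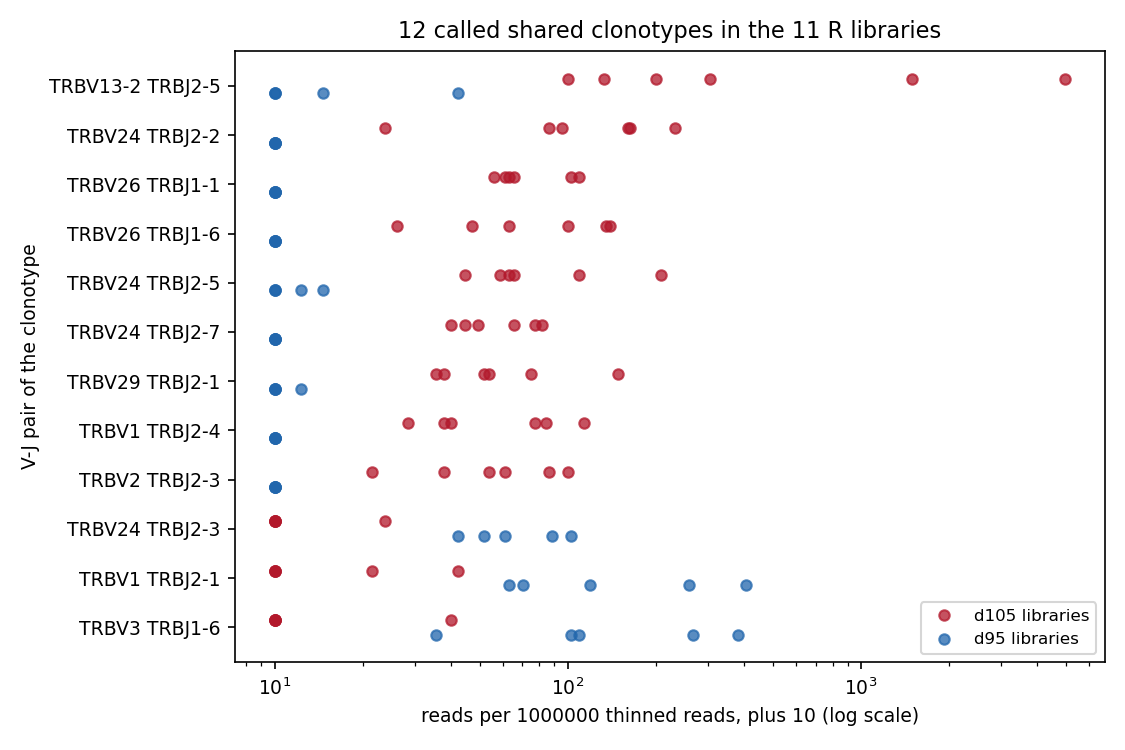
Reads per 1000000 thinned reads, plus 10, on a log scale, of the 12 called shared clonotypes (rows, by V-J pair) in the 6 d105 libraries (red) and the 5 d95 libraries (blue) of R mice. In the upper 9 rows the d105 points lie to the right of all d95 points, most of which sit at 10 (no reads), and in the lower 3 rows the d95 points lie higher, with an overlap for TRBV3 TRBJ1-6. The rows were chosen by their p, which favours such separation.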

How the data were processed

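TRB rearrangements were amplified from lymph node genomic DNA, 1 library per mouse, and replicates are separate mice numbered in accession order. Per the file headers, the authors deposited for each clonotype a clone count of reads, a normalized clone count, an nb clone count, best V, D and J segments, segment boundaries and the CDR3. The deposited normalized and nb clone counts were treated as a score, since the factor behind them is constant within a V-J pair and its derivation is not given in the sources used here. The aligner, clonotype caller and genome build are likewise not given in the sources used here. Every clonotype analysed was productive.

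Clone counts were thinned without replacement to 432954 reads per library (fixed seed), since totals differed with day. Shares were tested with limma 3.58.1 (R 4.3.3) on log2(percent + 0.01), for features with a mean share of at least 0.1%, and clonotypes present in 50% or more of the 11 libraries on log2(CPM + 10). Fold changes on these scales understate those of low values. Measures per library were tested with exact permutation of the mice in Python 3.11.15 with scipy 1.17.1. Adjustment was by Benjamini-Hochberg with a threshold of 0.05. The day differences of R, NR and PLX+PTX mice were compared as interaction contrasts in a limma fit of 27 libraries. Wilson intervals (95%) and the limit of 3 reads cover counting error only, because PCR reads without molecular identifiers are not independent molecules. The limma fit of d105 against d95 was tested on simulated data with known changes.

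The text draws its names from segments past the threshold (up to 10 per direction) and list members, V-J pairs (up to 5 per direction), length classes and residues past the threshold, the largest clonotype per library, called shared clonotypes, those in all 11 libraries (up to 10) and the 3 with most nucleotide forms. The members and lists were chosen with earlier results of these data known. Alternatives were another draw, no thinning, equal numbers of clonotypes, no filter, no single-read clonotypes, the authors' scores, edgeR 4.0.16, DESeq2 1.42.0, nucleotide clonotypes, 80% prevalence, each mouse left out and the lower block of label numbers left out. Equal V-J pair shares, shares within a pair, junction measures and the pairs read in other groups were chosen after seeing the data.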

Additional observations from a re-analysis of the deposited data

Results flagged for a closer look

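Of 94 groups of values examined, 8 held a library whose gap to the nearest other library exceeded the 95% critical value of Dixon's test. Chance sets apart about 1 in 20 groups.

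d105 R replicate 3 stood apart in 3 measures. Its clonality was 0.0373, against 0.0300 to 0.0325 in the other d105 mice. Its 10 largest clonotypes held 1.05% of reads, against 0.407 to 0.6252%. Its share of reads in segments of the FVB/N deletion list was 0.651%, against 0.0303 to 0.176%. The TRBV13-2 TRBJ2-5 clonotype alone held 0.496% of its reads.

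d95 R replicate 5 stood apart in 3 measures. Clonotypes above 0.1% of reads held 0.370% in this library, against 0 to 0.104% in the other d95 mice. Hydrophobic residues at positions 6 and 7 were carried by 2.15% of its reads, against 1.62 to 1.75%. TRBV29 held 5.83% of its reads, against 7.22 to 7.44%. The same library decided the comparison of the day difference between R and PLX+PTX mice.

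d95 R replicate 3, the shallowest library, stood apart in 2 measures. Its mean CDR3 length with each clonotype once was 13.9482 residues, against 13.9762 to 13.9853 in the other d95 mice. The motif GQG was carried by 3.10% of its reads, against 3.37 to 3.47%.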

How the results depend on the processing

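No paired analysis was possible because replicate numbers follow accession order and the mice of the 2 days are different animals. With the normalized clone count 19 segments, 8 read-weighted length classes and 19 shared clonotypes were called, and with the nb clone count 16 segments. Read-weighted differences (d105 minus d95) were then 0.000482 for clonality, -0.242 for the 10 largest clonotypes, -0.333 for expanded clonotypes, 0.0588 for CDR3 length, -5.06 for TRBJ1, 0.156 for DWG, -0.0330 for the V to J gap and -1.40 for TRBD1. Without thinning 41 pairs, 8 length classes and 7 residues were called with each clonotype once, clonality differed by 0.000861, and counted once the differences were 0.00788 for hydrophobic residues, 0.0787 for inner cysteine, 0.28 for the cysteine share (log2), 0.125 for GQG, 0.119 for DRG, 0.0147 for the deletion list, 0.106 for insertions and 0.0615 for J trimming. With equal clonotypes 13 pairs and 1 length class were called counted once, 1 length class by reads and 0 shared clonotypes, and the differences were -1.12 for convergent clonotypes, -0.424 for public reads and -0.00154 for the read-weighted gap. Without the filter 17 pairs and 0 length classes were called counted once. A second draw called 1 length class by reads. Without single-read clonotypes the differences were -0.00344 for clonality, -0.0402 for GTG, -0.0239 for DWG, 0.00580 for the deletion list and 0.0293 for insertions counted once, and -0.00664 for the read-weighted gap. With equal pair shares 0 residues were called in either weighting. The differences were -0.145 for public reads, 0.0795 for read-weighted J trimming, and on the log2 scale -0.00508 for glutamine and 0.00294 for serine by reads. Counted once they were -0.272 for public, 0.0149 for hydrophobic residues, 0.00115 for GQG, -0.0421 for DWG, 0.00568 for DRG and -0.0122 for V trimming. Shared clonotypes called numbered 0 at 80% prevalence, 0 by nucleotide sequence and 6 as shares within a pair. Without the lower block of label numbers 2 length classes (counted once) and 0 shared clonotypes were called, and the differences were 22735 for richness, -0.0109 for clonality, 0.0387 for CDR3 length, -1.37 for TRBJ1 and -0.379 for public counted once, -0.610 for public reads, and 0.0169 and 0.00228 for overlap. With the shallowest NR library left out, 1 segment was called for R minus PLX+PTX. Some differences opposite in sign to the main ones passed the threshold. By exact permutation these were read-weighted CDR3 length with the normalized clone count (adjusted p 0.0117) and convergent clonotypes with equal clonotypes (0.0225). Without thinning they were inner cysteine (0.0487), GQG (0.0260) and insertions (0.00866) counted once. Read-weighted J trimming with equal pair shares (0.0260) also passed, and by limma the cysteine share without thinning (0.0311).

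Leaving out 1 mouse gave 15 to 31 pairs counted once, 0 to 1 length classes by reads, 0 to 17 shared clonotypes, and 0 to 10 segments and 0 to 26 pairs for R minus PLX+PTX. The differences ran from -0.0399 to -0.0254 for read-weighted CDR3 length, -1.44 to -0.923 for TRBJ1 reads, -0.754 to -0.565 for public reads, -0.0530 to 0.0750 for the 10 largest, -0.0965 to 0.0259 for DRG counted once and -0.0148 to 0.0250 for the read-weighted gap. The cause of these changes was not tested, except that fewer mice or clonotypes were tested where they were left out. Over all alternatives, values for single segments, pairs, residues and clonotypes and minor measures kept direction and side of the threshold 1606 times, lost it 235 times, gained it 16 times and reversed 35 times. Values and counts that answer a comparison held 394 times, lost the threshold 15 times, gained it 3 times, reversed 3 times and moved otherwise 36 times. Clonotypes under 3 reads per library are below what this depth resolves.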
